A study of Homo sapiens with 8 samples.

Results

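The sirtuin family comprises 7 human genes, SIRT1 to SIRT7, and all 7 were found by gene symbol among the 14884 named genes of the array. Each sirtuin was read by 1 row of the table, and each passed the filter on low levels, so 7 of 7 were tested among 12734 genes. RNA came from 2 established human multiple myeloma cell lines, NCI-H929 and MM1.S, which grow from malignant plasma cells. Each line carried a short hairpin construct against SIRT6 (shSIRT6) or a scramble hairpin construct (SCR), and every one of the 4 combinations was hybridised to 2 Human Gene ST arrays, 8 in all. The groups are therefore NCI-H929 with shSIRT6, NCI-H929 with scramble, MM1.S with shSIRT6 and MM1.S with scramble. The labels give neither the hairpin's sequence nor the time after silencing. They also leave unsaid whether both arrays of a group stem from different cultures; p-values therefore reflect variation between arrays that may be purely technical.

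Sirtuins are enzymes that use the cofactor NAD+ to remove acetyl or longer acyl groups from lysines of proteins, and they release nicotinamide in doing so. SIRT1, SIRT6 and SIRT7 act mainly in the nucleus, SIRT2 mainly in the cytosol, and SIRT3, SIRT4 and SIRT5 in mitochondria. SIRT6 deacetylates histone H3 and takes part in DNA repair and in the control of glycolytic genes. All members need NAD+ and some share substrates, and the levels of the other sirtuins are of interest when one is silenced.

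The arrays were alike in scale, with median log2 levels from 3.88 to 3.97, and arrays of a group correlated at 0.989 to 0.992 across rows. Of 11 plasma cell markers 8 had a named row, and all 8 lay above the filter level, with a median log2 level of 9.47. For other cell types, whose probes cannot be set against these, the median log2 levels were 4.02 for 3 B cell markers, 4.40 for 4 T and NK cell markers, 3.50 for 5 myeloid markers and 3.24 for 2 stromal markers. The mean level of the plasma cell markers was 8.79 to 8.82 in NCI-H929 with shSIRT6 and 8.82 to 8.86 with scramble, and 8.19 to 8.23 in MM1.S with shSIRT6 and 8.21 to 8.25 with scramble. Between the lines with scramble, FCRL5 had by far the largest difference of these markers, 3.945 (7.27 in NCI-H929 against 3.325 in MM1.S, near the filter level). The median difference of the 8 markers was 0.208, with 6 positive and 2 negative. The mean of the T and NK cell markers was 4.61 to 4.64 in NCI-H929 with shSIRT6 against 4.29 to 4.39 with scramble, and 4.32 to 4.50 against 4.31 to 4.35 in MM1.S. In MM1.S the mean of the myeloid markers was 3.74 to 3.91 with shSIRT6 against 3.49 to 3.69 with scramble. Of the 3 B cell markers 1 was called between the lines with scramble, where 38.3% of all genes were called and 18.3% were called lower. It was CR2, lower in NCI-H929 with a log2 difference of −2.43 (limma, adjusted p = 7.03e-06), while PAX5 and CD22 differed by 0.12 and 0.03. The part of these markers in the results was not tested.

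Both lines had lower SIRT6 readings with the hairpin, but the reduction was small and did not pass the test in either line. In NCI-H929 the log2 level of SIRT6 was 6.25 and 6.31 with shSIRT6, against 6.53 and 6.97 with scramble. In MM1.S it was 5.60 and 5.78 with shSIRT6, against 5.88 and 6.09 with scramble. In each line both hairpin arrays lay below both scramble arrays, and the scramble arrays of NCI-H929 were the most spread, 0.44 apart. The log2 difference, shSIRT6 minus scramble, was −0.47 ± 0.16 (SE, n = 2 arrays each) in NCI-H929, with a 95% interval of −0.85 to −0.09 (limma, Benjamini-Hochberg adjusted p = 0.276). Expressed as a ratio, SIRT6 RNA stood at 0.722 of the scramble level there, with an interval of 0.556 to 0.937. In MM1.S the difference was −0.30 ± 0.16, with an interval of −0.67 to 0.08 (limma, Benjamini-Hochberg adjusted p = 0.355), which is a ratio of 0.815. Averaged over both lines it was −0.38 ± 0.11, with an interval of −0.65 to −0.12 (limma, Benjamini-Hochberg adjusted p = 0.135). The difference between the lines in this effect was −0.18 ± 0.23 and did not pass (limma, adjusted p = 0.771). Leaving out the higher scramble array of NCI-H929, replicate 2, reduced the difference there to −0.25, and leaving out the higher one of MM1.S, replicate 1, reduced that to −0.19. With 2 arrays on each side the smallest two-sided p of an exact permutation test is 0.333, and limma was used for every gene. The silenced gene itself thus gives only a weak check of the hairpin labels.

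**Figure D1:**
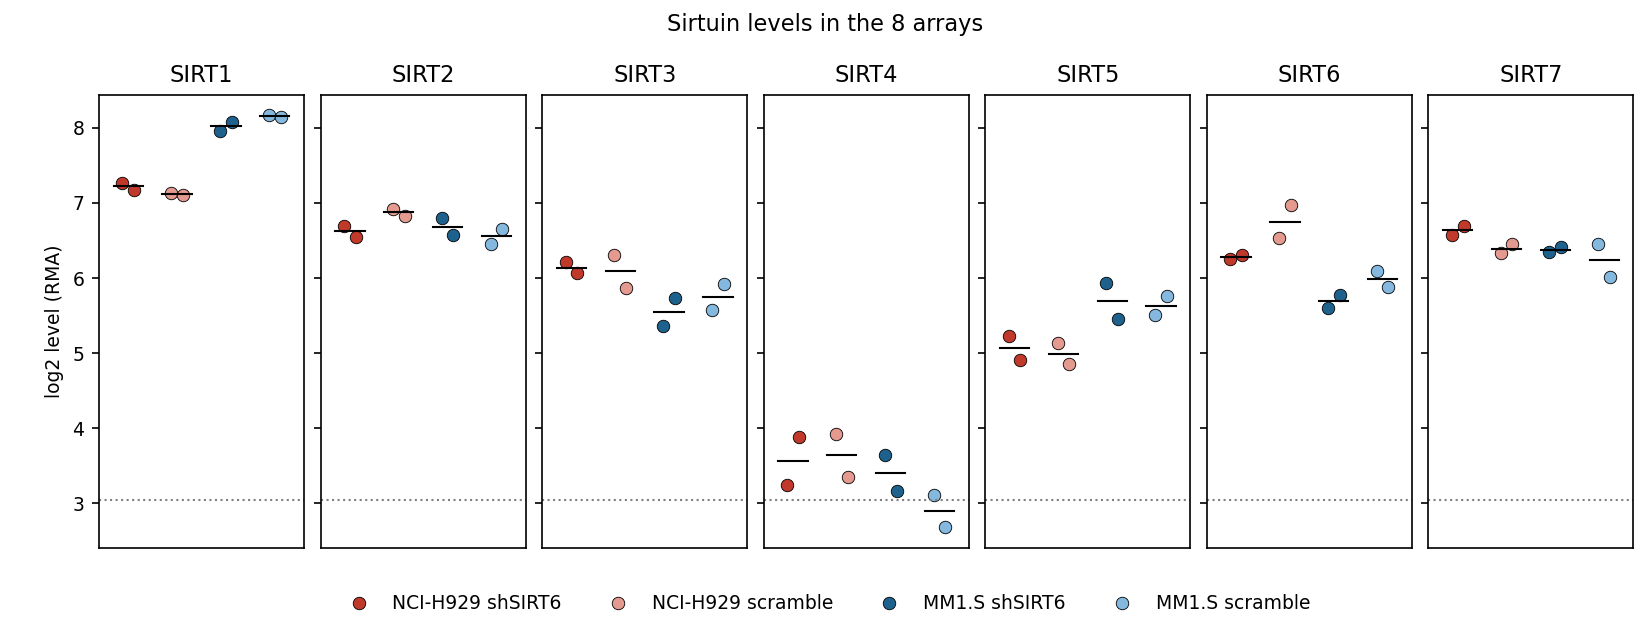
Log2 level of each sirtuin in the 8 arrays; points are single arrays, bars are group means (2 arrays each) and the dotted line marks the filter level of 3.045. Points may be compared within a panel only, since each gene is read by other probes. SIRT1 separates the lines, SIRT6 is highest in NCI-H929 with scramble, and SIRT4 lies near the filter level.

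SIRT6 was the one sirtuin whose hairpin arrays lay below the scramble arrays in both lines, an arrangement shown by 10.5% of the genes tested. Over the family, the arrays of the compared groups did not overlap for 4 of 7 members in NCI-H929, where 46.6% of all genes tested did the same, and for 3 of 7 in MM1.S, where the share was 50.7%. Hairpin arrays lay above for SIRT1 and SIRT7 and below for SIRT2 and SIRT6 in NCI-H929, and above for SIRT4 and below for SIRT1 and SIRT6 in MM1.S. None was above in both lines, as 4.99% of genes were. These counts are near the background. No sirtuin was called with the hairpin at an adjusted p below 0.05 (limma, 0 of 7 in NCI-H929, where 0.0236% of genes were called, and 0 of 7 in MM1.S, where 1.33% were). Averaged over both lines it was again 0 of 7, with 0.0864% of genes called. Taking p without adjustment, NCI-H929 had 1 of 7 under 0.05, SIRT6 itself, against 14.5% of all genes, and MM1.S had 0 of 7, against 19.6%. The average had 1 of 7, SIRT6, against 21.3%. The median log2 difference of the family was 0.05 in NCI-H929 and 0.07 in MM1.S, beside medians of −0.05 and 0.01 over all genes tested.

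Among the other nuclear sirtuins, SIRT1 had small differences of opposite sign in the lines. SIRT1 deacetylates FOXO factors and histones. Its log2 level in NCI-H929 was 7.27 and 7.17 with shSIRT6, against 7.13 and 7.10 with scramble. In MM1.S it was 7.96 and 8.08 with shSIRT6, against 8.17 and 8.15 with scramble. Hairpin arrays were thus above the scramble arrays in NCI-H929 and below them in MM1.S, without overlap. The differences of 0.11 ± 0.097 (SE) and −0.14 ± 0.097 did not pass (limma, adjusted p = 0.643 and 0.456), and neither did the difference between them, 0.25 ± 0.14 (adjusted p = 0.466). SIRT1 had the smallest replicate spread of the family, a pooled SD of 0.057 log2, so its intervals were the narrowest: the largest rise they allow is 0.33 log2, or 1.26-fold, in NCI-H929, and 0.09 log2, or 1.06-fold, in MM1.S.

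SIRT7, a nucleolar and chromatin deacetylase tied to transcription of ribosomal RNA, had positive differences in both lines. In NCI-H929 its log2 level was 6.58 and 6.69 with shSIRT6, against 6.33 and 6.45 with scramble. In MM1.S it was 6.35 and 6.41 with shSIRT6, against 6.45 and 6.02 with scramble. The groups were apart in NCI-H929 only, and in MM1.S 1 scramble array lay above both hairpin arrays. The differences were 0.25 ± 0.15 and 0.15 ± 0.15 (limma, adjusted p = 0.483 and 0.625), and their mean was 0.20 ± 0.11, with an interval of −0.05 to 0.44 (adjusted p = 0.327). Without scramble replicate 2 of MM1.S, the low array, the difference in that line was −0.07.

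SIRT2, the cytosolic member, which deacetylates tubulin, had opposite signs in the lines. In NCI-H929 its log2 level was 6.70 and 6.55 with shSIRT6, against 6.92 and 6.83 with scramble, with no overlap. In MM1.S it was 6.80 and 6.57 with shSIRT6, against 6.46 and 6.65 with scramble, and the groups overlapped. The differences were −0.25 ± 0.13 and 0.13 ± 0.13 (limma, adjusted p = 0.402 and 0.600). Of the 7 sirtuins, SIRT2 had the lowest p for a difference between the lines in the hairpin effect, −0.38 ± 0.18, with an interval of −0.79 to 0.03, and it was not called either (limma, adjusted p = 0.393; 0 of 7 sirtuins and 0.204% of all genes were called in that comparison, and 0 of 7 and 13.8% had an unadjusted p below 0.05).

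The mitochondrial sirtuins were the noisiest. SIRT3, the main mitochondrial deacetylase, had log2 levels of 6.21 and 6.07 with shSIRT6 against 6.31 and 5.87 with scramble in NCI-H929, and of 5.36 and 5.73 against 5.57 and 5.92 in MM1.S. SIRT5, which removes succinyl and malonyl groups, had 5.23 and 4.91 against 5.13 and 4.85 in NCI-H929, and 5.94 and 5.46 against 5.51 and 5.76 in MM1.S. Hairpin and scramble arrays overlapped for both genes in both lines. SIRT4, which acts on enzymes of amino acid and pyruvate use, had 3.24 and 3.88 against 3.93 and 3.35 in NCI-H929, where the groups overlapped. In MM1.S it had 3.64 and 3.17 with shSIRT6, against 3.11 and 2.68 with scramble, both hairpin arrays being the higher. The scramble mean of 2.90 is under the filter level of 3.045, and without scanner intensities it could not be judged whether SIRT4 was above background there. Pooled SDs were 0.24 log2 for SIRT3, 0.24 for SIRT5 and 0.38 for SIRT4, against a median of 0.14 over all genes tested.

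None of these 3 genes was called with the hairpin. For SIRT4 in MM1.S the difference was 0.51 ± 0.29 (SE), with an interval of −0.17 to 1.19 (limma, adjusted p = 0.374), and in NCI-H929 it was −0.08 ± 0.29 (adjusted p = 0.917). SIRT3 differed by 0.05 ± 0.20 in NCI-H929 and −0.20 ± 0.20 in MM1.S (limma, adjusted p = 0.924 and 0.613). SIRT5 differed by 0.08 ± 0.20 and 0.07 ± 0.20 (limma, adjusted p = 0.874 and 0.885).

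The question of compensation, whether another sirtuin is raised when SIRT6 is lowered, thus has no called rise to report. The intervals give the rises that the values still allow, not the rises that a call would have found. In simulated data for the MM1.S comparison, 8.96% of changes of 0.5 log2 and 70.1% of changes of 1 log2 were called (limma). In NCI-H929 the upper ends correspond to 1.03-fold for SIRT2, 1.26-fold for SIRT1, 1.43-fold for SIRT3, 1.46-fold for SIRT5, 1.51-fold for SIRT7 and 1.52-fold for SIRT4. In MM1.S they correspond to 1.06-fold for SIRT1, 1.20-fold for SIRT3, 1.34-fold for SIRT2, 1.41-fold for SIRT7, 1.44-fold for SIRT5 and 2.28-fold for SIRT4. A doubling lay outside the interval for every member but SIRT4 in MM1.S. These bounds are for single genes and are not adjusted for the number of genes.

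**Figure D2:**
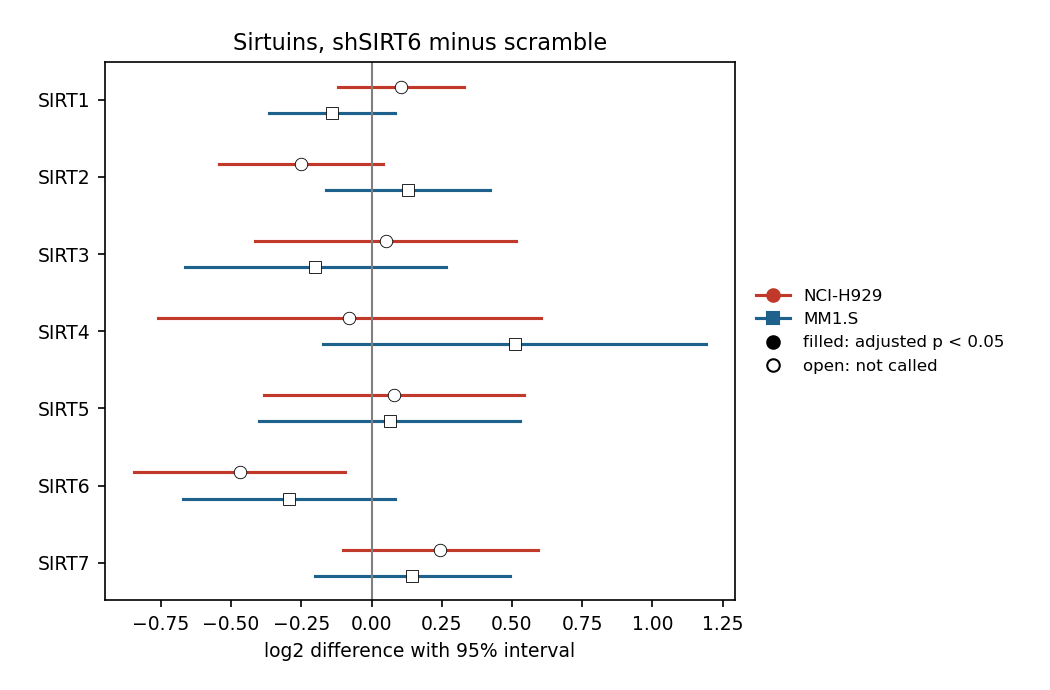
Log2 difference, shSIRT6 minus scramble, of each sirtuin in NCI-H929 (circles) and MM1.S (squares) with its 95% interval from limma (2 arrays per group); open symbols were not called. All symbols are open, and the interval of SIRT6 in NCI-H929, −0.85 to −0.09, is the one that leaves out 0.

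The lines themselves differed far more than the constructs. With scramble, NCI-H929 had 0.485 of the SIRT1 level of MM1.S, 1.70 times the SIRT6 level and 0.639 of the SIRT5 level. For SIRT1 the log2 level was 7.13 and 7.10 in NCI-H929, against 8.17 and 8.15 in MM1.S, a difference of −1.05 ± 0.097 (SE; limma, Benjamini-Hochberg adjusted p = 0.000152). For SIRT6 it was 6.53 and 6.97 in NCI-H929, against 6.09 and 5.88 in MM1.S, a difference of 0.77 ± 0.16 (limma, adjusted p = 0.00729). For SIRT5 it was 5.13 and 4.85 in NCI-H929, against 5.51 and 5.76 in MM1.S, a difference of −0.65 ± 0.20 (limma, adjusted p = 0.0363). In none of the 3 did arrays of the lines overlap. Thus 3 of 7 sirtuins were called, 1 higher and 2 lower, where 38.3% of all genes were called between the lines, so the share is close to the background. Unadjusted, 5 of 7 had a p below 0.05, against 46.0% of all genes. Arrays of the lines were apart for 5 of 7, SIRT2, SIRT4 and SIRT6 above and SIRT1 and SIRT5 below in NCI-H929, against 67.9% of all genes (36.0% above and 31.9% below). The call of SIRT5 was lost without any 1 of the 4 scramble arrays: adjusted p was 0.0532 without replicate 1 and 0.181 without replicate 2 of NCI-H929, and 0.0598 without replicate 1 and 0.164 without replicate 2 of MM1.S. It was also lost with the replicate number as a block (adjusted p = 0.051).

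The other members did not pass with scramble. SIRT2 and SIRT4 were higher in both NCI-H929 arrays than in both MM1.S arrays, by 0.32 ± 0.13 and 0.75 ± 0.29 (limma, adjusted p = 0.0827 and 0.0833). SIRT3 differed by 0.35 ± 0.20 and SIRT7 by 0.16 ± 0.15 (limma, adjusted p = 0.223 and 0.469), with arrays of the lines overlapping for both. When the prior variance was allowed to follow the mean level, SIRT2 and SIRT4 had an adjusted p of 0.0499 and 0.0338 (limma with a trend). For SIRT4 that comparison is against the MM1.S scramble mean of 2.90, which is under the filter level.

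The hairpin arrays give a second view of the lines from other arrays, a comparison added after seeing the data. With shSIRT6, SIRT1 differed by −0.80 ± 0.097, SIRT6 by 0.59 ± 0.16, SIRT5 by −0.63 ± 0.20 and SIRT3 by 0.60 ± 0.20, NCI-H929 minus MM1.S (limma, adjusted p = 0.000508, 0.0231, 0.0402 and 0.0494). So 4 of 7 were called, where 37.9% of all genes were. SIRT2 (−0.06 ± 0.13), SIRT4 (0.16 ± 0.29) and SIRT7 (0.26 ± 0.15) were not called (limma, adjusted p = 0.751, 0.724 and 0.227). Averaged over both constructs, the difference was −0.92 ± 0.068 for SIRT1, 0.68 ± 0.11 for SIRT6, −0.64 ± 0.14 for SIRT5 and 0.47 ± 0.14 for SIRT3 (limma, adjusted p = 2.47e-05, 0.00171, 0.00663 and 0.0261, with 47.9% of all genes called).

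**Figure D3:**
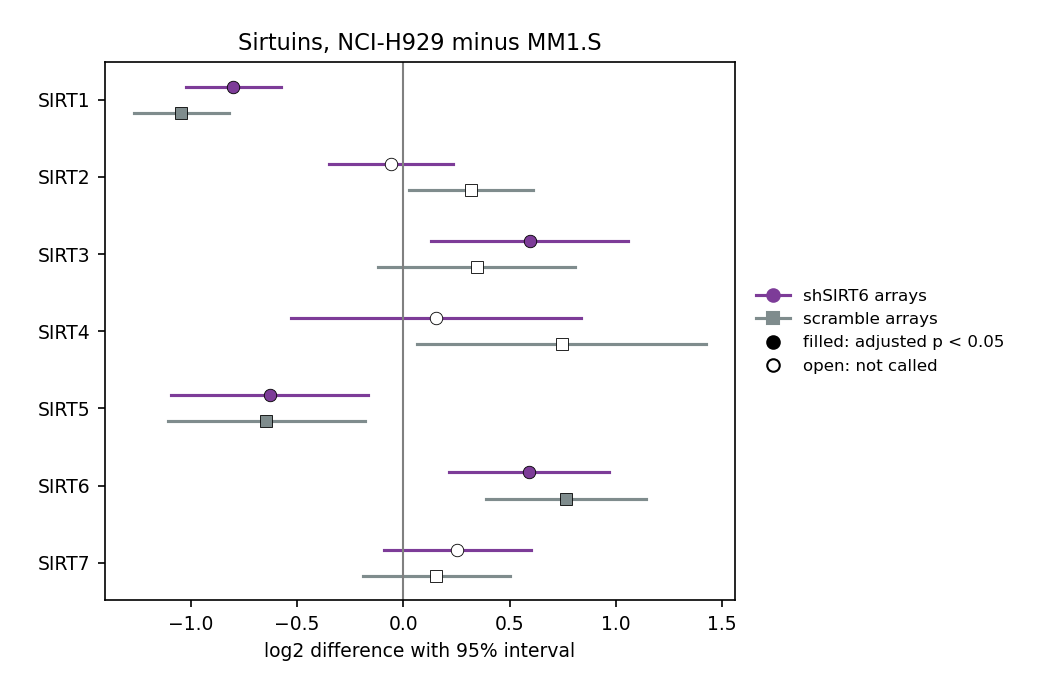
Log2 difference, NCI-H929 minus MM1.S, of each sirtuin among the shSIRT6 arrays (circles) and among the scramble arrays (squares), with 95% intervals from limma (2 arrays per group); filled symbols were called at an adjusted p below 0.05. SIRT1 and SIRT5 lie left of 0 and SIRT6 right of it with either construct.

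Ordered by mean log2 level over the 4 groups, SIRT6 stood at 6.75 in NCI-H929 with scramble, 6.28 in NCI-H929 with shSIRT6, 5.99 in MM1.S with scramble and 5.69 in MM1.S with shSIRT6. The silenced NCI-H929 arrays (6.25 and 6.31) thus still read above the unsilenced MM1.S arrays (6.09 and 5.88), a comparison of values that was not tested. Between the constructs of a line, neighbours in this order did not pass the test. SIRT1 ran the other way, from 8.16 in MM1.S with scramble and 8.02 with shSIRT6 to 7.22 in NCI-H929 with shSIRT6 and 7.12 with scramble. The line comparison and the hairpin comparisons share the scramble arrays, so a high or low scramble array moves both.

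The upstream sequences of SIRT1 and SIRT6 are shown because these members differed between the lines in opposite directions with both constructs. RefSeq windows (build GRCh38.p14) matched 6 of 7 sirtuins, SIRT7 being the one without, and only the 250 bases before the start site were used. Capitals mark the E-box CACGTG, the site of MYC and related factors, and the GC box GGGCGG or its reverse complement CCGCCC, the site of SP factors. Overlapping GC boxes run together. SIRT1 lies at chr10:67884406-67884655 on the plus strand, and SIRT6 at chr19:4182564-4182813 on the minus strand.
SIRT1: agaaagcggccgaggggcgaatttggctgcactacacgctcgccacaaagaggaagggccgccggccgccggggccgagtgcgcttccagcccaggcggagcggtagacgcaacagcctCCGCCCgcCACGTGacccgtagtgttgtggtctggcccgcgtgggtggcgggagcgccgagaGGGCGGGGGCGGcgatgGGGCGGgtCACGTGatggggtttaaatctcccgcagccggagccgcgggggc
SIRT6: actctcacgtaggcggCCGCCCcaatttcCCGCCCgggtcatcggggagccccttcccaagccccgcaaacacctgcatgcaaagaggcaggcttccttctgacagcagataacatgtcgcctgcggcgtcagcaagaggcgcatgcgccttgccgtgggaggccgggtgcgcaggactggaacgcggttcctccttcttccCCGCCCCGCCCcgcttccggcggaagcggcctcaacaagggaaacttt
The SIRT1 window holds 2 E-boxes, beginning 123 and 44 bases before the start site, and 0.535% of 35116 such windows hold 2 or more. Both strands are covered because the motif is its own reverse complement. No other sirtuin window holds this motif, which 6.34% of all windows do. The SIRT1 window and the printed one of 2 SIRT6 windows each hold 4 GC boxes, both strands counted, and 7.63% of windows hold 4 or more; the second SIRT6 window holds 1. The windows of SIRT2, SIRT3 and SIRT4 hold none, and the GC content is 72.0% for SIRT1 and 65.6% for SIRT6. A match describes these letters only.

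Position along the chromosome was compared with the line difference, using the order of tested genes in the RefSeq annotation of GRCh38.p14 and the nearest 5 on each side; this was chosen after the values were seen. SIRT1 lies on chromosome 10, where 6 of its 10 neighbours were called lower and 0 higher in NCI-H929 with scramble, with a median log2 difference of −0.57. SIRT5 lies on chromosome 6, where 5 of 10 neighbours were called lower and 1 higher, with a median of −0.41. For SIRT6 on chromosome 19, 2 of 10 neighbours were called higher and 0 lower, with a median of 0.21 and a highest value of 0.78, close to the 0.77 of SIRT6 itself. Among the sirtuins not called between the lines, 5 of 10 neighbours were called higher for SIRT4 on chromosome 12, 3 of 10 for SIRT2 on chromosome 19, 3 of 10 for SIRT7 on chromosome 17 and 2 of 8 for SIRT3 on chromosome 11, with 0 called lower for each. Their medians were 0.30, 0.15, 0.13 and 0.17. Over all genes tested 20.0% were called higher and 18.3% lower in NCI-H929, so the count for SIRT6 is at the background. Whether the number of gene copies differs between the lines at these places was not tested.

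Several genes listed for NAD+ synthesis read lower with the hairpin in MM1.S, and none was called. That list also holds the NAD kinases, which act on NAD+ rather than make it. Of 20 listed, 13 were tested, with a median log2 difference of −0.14 in MM1.S and 0.07 in NCI-H929, beside 0.01 and −0.05 over all genes. In MM1.S 6 of the 13 had an unadjusted p below 0.05, all with a negative difference, where 19.6% of all genes did. In NCI-H929 0 of the 13 did, where 14.5% of all genes did. Called were 0 of the 13 in either line, where 1.33% of all genes were called in MM1.S and 0.0236% in NCI-H929. PNP, a phosphorylase that acts on purine and nicotinamide ribosides, had log2 levels of 6.61 and 6.45 with shSIRT6, against 7.16 and 7.01 with scramble in MM1.S, a difference of −0.56 ± 0.11 (SE; limma, adjusted p = 0.0635). NADK2, the mitochondrial NAD kinase, differed by −0.43 ± 0.093 and NMNAT1, the nuclear enzyme that completes NAD+, by −0.53 ± 0.12 (limma, adjusted p = 0.0739 and 0.0792). NAMPT, the rate-limiting enzyme of NAD+ salvage, named after its values were seen, had 9.83 and 9.90 with shSIRT6 against 10.28 and 10.33 with scramble in MM1.S (−0.44 ± 0.13, limma, adjusted p = 0.145), and 9.91 and 10.29 against 10.15 and 10.11 in NCI-H929. In NCI-H929 the lowest p values were those of NMRK2, a nicotinamide riboside kinase (0.50 ± 0.25), QPRT (−0.29 ± 0.18) and KMO (0.30 ± 0.21), enzymes of synthesis from tryptophan (limma, adjusted p = 0.397, 0.494 and 0.556). With the stricter filter PNP and NADK2 passed in MM1.S (limma, adjusted p = 0.0434 and 0.0492), and with a variance trend too (0.00338 and 0.00351).

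The list of other NAD+ consumers, which also takes in NNMT as a user of nicotinamide, included the only called gene of the related lists. That call was in MM1.S, where 1.33% of all genes were called. Of 19 listed, 6 were tested, and PARP2, a DNA-break sensor that makes poly(ADP-ribose), fell in MM1.S by 0.73 ± 0.10 on the log2 scale (limma, adjusted p = 0.0263), with 6.14 and 6.23 with shSIRT6 against 6.98 and 6.84 with scramble. The call of PARP2 was lost without any 1 of the 4 MM1.S arrays or without either NCI-H929 scramble array, with an adjusted p of up to 0.195. In NCI-H929 it differed by −0.28 ± 0.10 (limma, adjusted p = 0.290). CD38, the surface NAD+ hydrolase of plasma cells, differed by −0.28 ± 0.12 and BST1, its relative, by 0.30 ± 0.14 in MM1.S, and neither was called (limma, adjusted p = 0.256 for CD38). In NCI-H929 SARM1, an NAD+ hydrolase of neurons, differed by 0.37 ± 0.14 and NNMT, which methylates nicotinamide, by 0.46 ± 0.22 (limma, adjusted p = 0.318 and 0.378). NNMT read 3.09 and 3.68 with shSIRT6 against 3.10 and 2.75 with scramble there, near the filter level and with overlap. Its mean over all arrays, 3.104, was just above that level. The NCI-H929 shSIRT6 arrays, with the highest group mean of 3.385, helped it pass. Whether NNMT was above background could not be judged.

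Genes for sirtuin regulators and substrates showed no called change with the hairpin. Over all genes tested 0.0236% were called in NCI-H929 and 1.33% in MM1.S. An unadjusted p below 0.05 was found for 14.5% of all genes in NCI-H929 and 19.6% in MM1.S (limma). Of 9 regulators 5 were tested and 0 called in either line (limma; 0 in NCI-H929 and 0 in MM1.S with an unadjusted p below 0.05), with medians of −0.14 in NCI-H929 and −0.02 in MM1.S. The lowest p values in NCI-H929 were those of FOXO3 (−0.28 ± 0.12), E2F1 (−0.31 ± 0.14) and USP22 (−0.14 ± 0.096), and in MM1.S those of E2F1 (0.17 ± 0.14), LMNA (0.10 ± 0.18) and RPS19BP1 (−0.08 ± 0.17). Of 12 nuclear and cytosolic substrates 9 were tested and 0 called (limma; 1 in NCI-H929 and 3 in MM1.S with an unadjusted p below 0.05). The lowest p values were those of RELA of NF-kB (−0.25 ± 0.10), FOXO3 and XRCC6 of DNA end joining (−0.17 ± 0.11) in NCI-H929. In MM1.S they were those of the acetyltransferase KAT2A (0.37 ± 0.10), RELA (0.26 ± 0.10) and FOXO1 (−0.28 ± 0.11). Of 16 mitochondrial substrates 7 were tested and 0 called (limma; 2 in NCI-H929 and 1 in MM1.S with an unadjusted p below 0.05). GLUD1, glutamate dehydrogenase, differed by −0.37 ± 0.11 in NCI-H929 and −0.12 ± 0.11 in MM1.S. HADH of fatty acid oxidation differed by −0.26 ± 0.10 in NCI-H929, MLYCD, malonyl-CoA decarboxylase, by −0.19 ± 0.096 in MM1.S, and PPIF, cyclophilin D, by −0.13 ± 0.091 in NCI-H929 and 0.31 ± 0.091 in MM1.S.

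Glycolysis genes that SIRT6 represses in mouse cells gave no called change. For the counts here, the shares called over all genes were 0.0236% in NCI-H929 and 1.33% in MM1.S. Those with an unadjusted p below 0.05 were 14.5% and 19.6% (limma). Only 3 of 8 could be tested: LDHA differed by −0.15 ± 0.10 in NCI-H929 and 0.13 ± 0.10 in MM1.S, LDHB by −0.21 ± 0.11 and −0.13 ± 0.11, and TPI1 by 0.06 ± 0.19 and −0.11 ± 0.19 (limma, 0 called; 0 with an unadjusted p below 0.05 in either line). The other deacetylase family, the zinc-dependent HDAC1 to HDAC11, was tested in full, with 0 of 11 called (limma; 1 in NCI-H929 and 2 in MM1.S with an unadjusted p below 0.05) and medians of −0.09 in NCI-H929 and −0.02 in MM1.S. HDAC5 (−0.36 ± 0.15), HDAC7 (−0.22 ± 0.11) and HDAC6 (−0.18 ± 0.11) had the lowest p values in NCI-H929, and HDAC8 (−0.48 ± 0.12), HDAC9 (0.31 ± 0.11) and HDAC7 (0.14 ± 0.11) in MM1.S. Among the plasma cell markers 1 of 8 tested was called in MM1.S, where 1.33% of all genes were. That gene, SDC1, was higher by 0.52 ± 0.091 with the hairpin (limma, adjusted p = 0.0461). Its call was lost without any 1 of the 8 arrays, the difference then being 0.495 to 0.545. Of the 8 markers 4 had a positive and 4 a negative difference in MM1.S, with a median of 0.005. FCRL5 (−0.60 ± 0.15) and IRF4 (−0.33 ± 0.091) were lower there and not called (limma, adjusted p = 0.0958 and 0.121). FCRL5 read 3.35 and 3.30 with scramble in MM1.S, near the filter level, and 2.73 and 2.72 with shSIRT6, under it. Whether FCRL5 was above background in MM1.S could not be judged, so its difference there cannot be read as a change of expression.

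**Figure D4:**
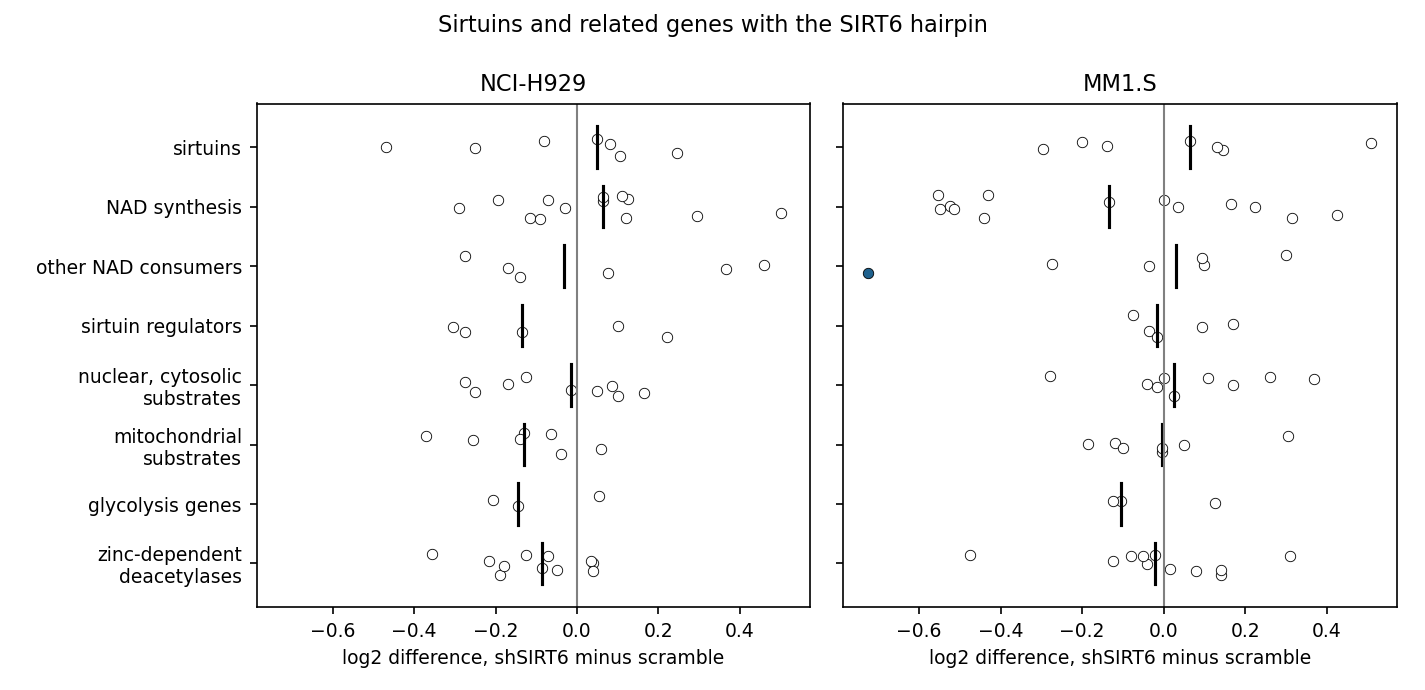
Log2 difference, shSIRT6 minus scramble, of every tested sirtuin and of the tested genes of 7 related lists, in NCI-H929 (left) and MM1.S (right); points are genes, bars are list medians and filled points were called. PARP2 in MM1.S, at −0.73, is the one filled point, and 6 NAD synthesis genes lie between −0.56 and −0.43 in MM1.S.

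Between the lines with scramble, related genes differed by more, as did genes in general. Of all genes tested 20.0% were called higher and 18.3% lower in NCI-H929. Called higher and lower there were 2 and 1 of 6 listed NAD+ consumers and 1 and 2 of 5 regulators. For zinc-dependent deacetylases it was 1 and 2 of 11, and for glycolysis genes 0 and 1 of 3. Nuclear and cytosolic substrates had 2 and 2 of 9, mitochondrial substrates 2 and 3 of 7. Whether a list differed from all genes was not tested. Of the NAD synthesis genes 4 of 13 were called higher and 2 lower in NCI-H929. Among those higher were QPRT (1.72 ± 0.18, SE), PNP (1.24 ± 0.11) and AFMID (0.97 ± 0.15). KMO was lower (−3.30 ± 0.21), with levels of 3.30 and 3.57 in NCI-H929 near the filter level. QPRT read 3.77 and 3.34 in MM1.S, also near that level. Of the other NAD+ consumers PARP2 (0.94 ± 0.10) and CD38 (0.89 ± 0.12) were higher, PARP1 was lower (−0.87 ± 0.095), and BST1 was not called (0.29 ± 0.14). Among regulators LMNA, which binds SIRT6 at the nuclear lamina, was higher (1.73 ± 0.18), FOXO3 (−1.62 ± 0.12) and USP22 (−0.38 ± 0.096) were lower, and E2F1 was not called (0.25 ± 0.14). Among substrates MLYCD (0.78 ± 0.096), DLAT of pyruvate dehydrogenase (0.69 ± 0.10), KAT2A (0.48 ± 0.10) and RELA (0.32 ± 0.10) were higher, and ACSS2, a target of SIRT1 (−0.96 ± 0.15), HADH (−0.93 ± 0.10) and GLUD1 (−0.46 ± 0.11) were lower. LDHB was lower (−0.97 ± 0.11), while TPI1 (−0.43 ± 0.19) and LDHA (0.22 ± 0.10) were not called. Of the zinc-dependent family HDAC9 (−0.84 ± 0.11) and HDAC8 (−0.65 ± 0.12) were lower, HDAC5 was higher (0.47 ± 0.15) and HDAC3 was not called (0.29 ± 0.13). Adjusted p over the called genes of this paragraph ran from 2.93e-05 for KMO to 0.0438 for HDAC5 (limma). Leaving out 1 array ended the calls of HDAC5 and RELA in 6 of 8 cases each, of USP22 in 4, of GLUD1 in 2 and of KAT2A in 1. The calls of HDAC5 and RELA were also lost with quantile normalization (adjusted p = 0.0634 and 0.0665) and cyclic loess normalization (0.0573 and 0.0514). Among the shSIRT6 arrays the line differences of HDAC8 (−0.14), KAT2A (0.10), RELA (−0.20) and HDAC5 (−0.03) were not called (limma, adjusted p = 0.411, 0.53, 0.175 and 0.901).

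The genes whose line-centred log2 levels ran closest to those of SIRT6 over the 8 arrays were IKBIP, SEPSECS-DT and the microRNA gene MIRLET7I. Their root mean square differences from SIRT6 were 0.075, 0.077 and 0.080 log2. IKBIP had 6.99 and 7.17 with shSIRT6 against 7.44 and 7.64 with scramble in NCI-H929, and 5.48 and 5.72 against 6.05 and 5.89 in MM1.S. The hairpin differences of the 3 genes lay between −0.46 and −0.13 log2, and none was called (limma, adjusted p from 0.194 to 0.648). These genes were picked for closeness to SIRT6 over the same arrays, so the shared negative sign follows largely from the choice.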

How the data were processed

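RNA of the 2 cell lines was measured on Human Gene ST arrays. The deposited values are log2 levels to 2 decimals, 1 per transcript cluster; RMA and the Transcriptome Analysis Console with build hg19 are the tools that the submitters' processing notes list for the authors. RMA normally makes the arrays' distributions alike, so a change of total RNA per cell would not be seen. Which versions were run is not given in the sources used here, and no scanner intensities were analysed. Of 48226 rows 16098 carry 1 symbol, 0 several and 32128 none; of 779 genes with several rows the highest was kept. A gene was tested if its mean exceeded 3.045, the 30th percentile over all rows, which left 12734. The fit was limma 3.58.1 (R 4.3.3) on 4 group means (4 residual and 3.43 prior degrees of freedom), with Benjamini-Hochberg adjustment over all genes and calls at an adjusted p below 0.05. Intervals are limma's at 95%. The number of arrays limits the precision.

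Sirtuins were taken by symbol. Members, lists and contrasts were chosen with earlier results of these data known. Named genes are the sirtuins; of each of 7 related lists the called genes and otherwise the 3 lowest p per line, and 4 between lines; called genes of 5 marker lists; and the 3 genes nearest to SIRT6. The fit was tested on simulated data. Alternatives were 2 normalizations, 2 filters, averaged rows, 2 variance models, a replicate block, single lines, single arrays left out, and 2 other line contrasts.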

Additional observations from a re-analysis of the deposited data

How the results depend on the processing

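No sirtuin was called with the hairpin, in a line, averaged or as a difference between lines, in any of the 458 alternative values computed (limma), SIRT4 having none under the stricter filter, and within a line or averaged SIRT6 stayed negative: −0.69 to −0.25 in NCI-H929, −0.40 to −0.19 in MM1.S and −0.49 to −0.27 averaged. Its difference between lines turned positive (0.045) without NCI-H929 scramble replicate 2. Between lines SIRT1 and SIRT6 kept their calls under every alternative; sirtuins called numbered 5 with a variance trend and 2 with the replicate block. Little shared deviation of same-numbered arrays was seen (correlations of −0.00108 in NCI-H929 and 0.0767 in MM1.S), which cannot decide whether they were handled as pairs. The replicate block brought the genes called to 0 in each hairpin comparison and to 4590 between lines.

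Genes called in MM1.S, 169, became 314 with the stricter filter, 953 with a variance trend, 0 with the line fitted alone, and 0 to 84 with single arrays left out. In NCI-H929, 3 became 0 with quantile normalization, cyclic loess normalization, no filter, averaged rows, robust variance, the line alone or any array left out, and 194 with a variance trend. Averaged, 11 became 4 and 5 with quantile and cyclic loess normalization, 98 with the stricter filter, 911 with a variance trend and 0 with any array left out. For the difference, 26 (25 higher, 1 lower) became 430 with a variance trend (202 higher, 228 lower) and 2 to 6 with single arrays left out. Where a setting called 0 genes, those with an unadjusted p below 0.05 numbered 1184 to 1944 in NCI-H929, 1477 to 2444 in MM1.S, 1877 to 2693 averaged and 1704 for the difference (limma).

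These values changed sign; all were uncalled in the comparison as reported except RELA and HDAC5 between lines. Averaged over lines, quantile and cyclic loess normalization gave SIRT1 0.072 and 0.039, and quantile normalization gave SIRT2 0.022; it gave SIRT5 −0.008 for the difference. With single arrays left out, MM1.S ranges were −0.18 to 0.31 for SIRT5, −0.07 to 0.36 for SIRT7, −0.03 to 0.22 for LMNA, −0.25 to 0.10 for RPS19BP1 and −0.35 to 0.14 for TPI1. In NCI-H929 they were −0.17 to 0.27 for SIRT3, −0.40 to 0.24 for SIRT4, −0.08 to 0.24 for SIRT5 and −0.015 to 0.13 for TPI1. Averaged, they were −0.047 to 0.013 for SIRT1, −0.19 to 0.035 for SIRT3 and −0.047 to 0.19 for SIRT5. For the difference they were −0.23 to 0.26 for SIRT5, −0.40 to 0.045 for SIRT6 and −0.12 to 0.32 for SIRT7, and between lines −0.06 to 0.37 for SIRT7. With shSIRT6 in place of scramble the line difference was −0.06 for SIRT2, −0.23 for E2F1, −0.20 for RELA, −0.05 for LDHA and −0.03 for HDAC5. The cause of these changes was not tested.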
